A study of Mus musculus with 12 samples.

Results

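The genes described here copy the nuclear DNA and supply its nucleotides. The list names 51 genes, which were matched to probes by gene symbol. Of these, 49 were measured, on 56 of the 17589 probes of the array, and Cdt1 and Rpa3 had no probe under their symbols. A gene was read from 1 probe, which gave 12913 genes in all. All 49 measured genes had a value on every array, so none was removed by a filter.

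Each of the 12 arrays carried 2 RNA samples of mouse mammary gland taken at 5 weeks of age. On 6 arrays the Cy5 channel held total RNA of microdissected terminal end buds, the club-shaped growing tips of the pubertal ductal tree. On the other 6 it held total RNA of microdissected ducts, the mature tubes behind those tips. The Cy3 channel of every array held RNA of distal stroma, the fat pad beyond the tree that contains no epithelium. All tissue came from glands of B-actin-GFP reporter mice, whose green fluorescence served to see the tree during dissection, and no treatment is given for any group. The reporter drives fluorescence in most cell types, so the labelled tissue rests on dissection and not on a cell-type promoter. No source used here says how many animals were pooled or whether each array is a different animal. The p-values therefore reflect array-to-array spread, which may be technical. In bulk tissue, fewer cells of a type and less RNA per cell cannot be told apart.

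Every value is a log2 ratio of epithelium over distal stroma, where 0 means equal signal and 1 a doubling. The base of the logarithm was read from the values, and natural logarithms remain possible, which would alter sizes but no sign and no test. A gene is said to be higher or lower where the moderated test of limma gave an adjusted p under 0.05, with Benjamini-Hochberg adjustment over all 17589 probes. Differences are given with their standard error (SE) from that fit, and n is 6 arrays per group. Stroma was only ever the reference. It is counted as 1 control sample, its own spread was not measured apart from that of the ratios, and whether it was 1 pool is not stated in the labels. With no swap of the dyes a dye bias of single probes cannot be told apart from a difference to stroma. The comparison of the 2 epithelial structures with each other uses the same dye on both sides.

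Replication starts at origins that are licensed in G1, when the origin recognition complex, Cdc6 and Cdt1 load the ring-shaped MCM2-7 helicase onto DNA. In S phase the kinase Cdc7 with Dbf4, together with Cdc45 and the GINS complex, turns the loaded ring into an active helicase, and DNA polymerases follow behind it. Many of these genes are transcribed at the G1/S boundary under E2F factors. Terminal end buds are known as the main site of cell division in the pubertal gland, while mature ducts divide less.

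Most replication genes exceeded stroma in the terminal end buds. Of the 49 measured, 40 were higher, where 24.8% of all 12913 genes were, and 4 were lower, where 21.8% of all genes were. In ducts 18 were higher than stroma (17.1% of all genes) and 3 were lower (13% of all genes). Between the structures, 30 were higher in terminal end buds than in ducts (9.11% of all genes) and 2 were lower (11.3% of all genes). The median ratio of the 49 genes was 0.73 in terminal end buds and 0.22 in ducts, against 0.013 over all genes in either structure. Their median difference between the structures was 0.585, against 0.001 over all genes. Both comparisons with stroma share the stromal reference, so their counts are not independent of each other.

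All 30 genes that were higher in terminal end buds than in ducts were also higher than stroma in terminal end buds. Both comparisons use the same 6 terminal end bud arrays, so part of this overlap is built in. Against stroma, 17 genes were higher in both structures and 22 were higher in terminal end buds and not called in ducts. Hells passed in ducts and not in terminal end buds on the probe read, but its other probes were higher in terminal end buds. These combined patterns were not counted over all genes. The groups of 6 arrays did not overlap for 14 genes, each with all terminal end bud arrays above all duct arrays, where 4.91% of all genes showed that order. For 1 gene, Rfc1, all terminal end bud arrays lay below all duct arrays (6.3% of all genes). By size, 16 genes were higher than stroma by at least 1 on the log2 scale in terminal end buds (4.34% of all genes), and 0 of the 18 called in ducts reached that size (2.11% of all genes).

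**Figure D1:**
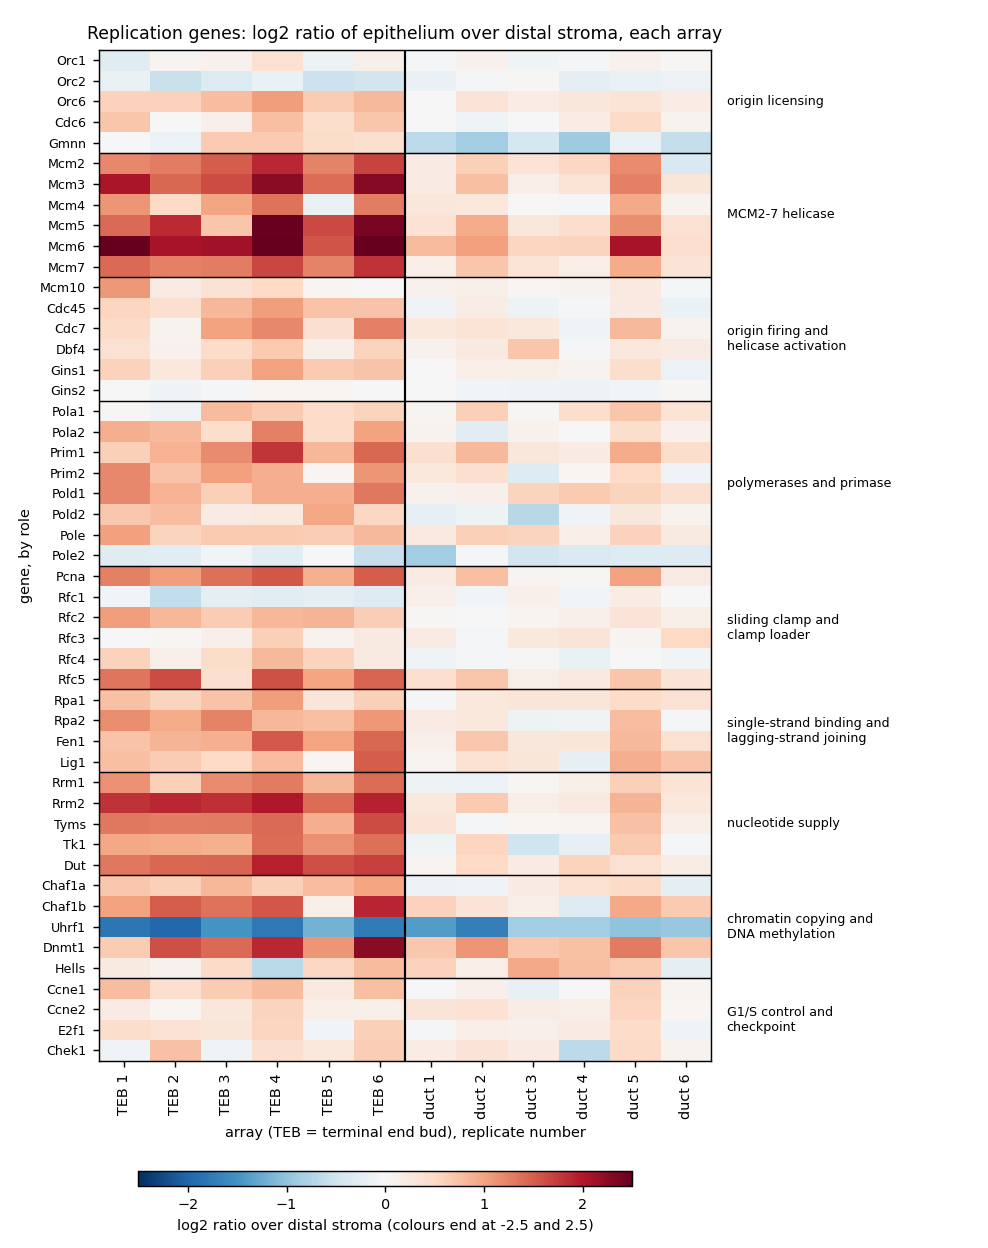
Log2 ratio of epithelium over distal stroma for the 49 measured genes (rows, by role) on 6 terminal end bud (TEB) arrays and 6 duct arrays (columns), with red above and blue below stroma. The MCM2-7 and nucleotide supply rows are red across the terminal end bud arrays except Mcm4 on replicate 5 (-0.16), Uhrf1 is blue on all 12 arrays, and among the ducts replicate 5 is the reddest column.

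The calls did not depend equally on single arrays. Leaving out each array in turn kept 26 of the 30 genes higher in terminal end buds than in ducts in all 12 fits, and 38 of the 40 higher than stroma in terminal end buds. Of the 2 genes lower in terminal end buds than in ducts, Rfc1 kept its call in all 12 and Uhrf1 did not. Under quantile normalization 22 of the 30 kept their call. The 8 that lost it were Prim1, Prim2, Pold1, Pole, Rfc5, Rpa1, Fen1 and Chaf1b. In ducts only 9 of the 18 genes higher than stroma kept their call in all 12 fits, namely Mcm6, Mcm7, Prim1, Pold1, Pole, Fen1, Rrm2, Dut and Dnmt1. Duct replicate 5 had the highest duct value for 37 of the 49 genes. Without duct replicate 5, 9 genes were called higher in ducts and the median duct ratio was 0.13, and without duct replicate 2, 11 genes were called. The other duct arrays left the count at 15 or 16 when removed.

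Per array, the median ratio of the 49 genes was 0.70, 0.59, 0.66, 0.91, 0.55 and 0.82 in terminal end bud replicates 1 to 6. In ducts it was 0.11, 0.26, 0.15, 0.093, 0.53 and 0.093. The lowest terminal end bud array lay just above duct replicate 5, and the other 5 duct arrays lay well under it. Of the slide numbers in the labels, 2 arrays per group lay at 193 or below and 4 per group at 196 or above. The median difference between the structures was 0.52 on the early slides alone, with 15 genes higher in terminal end buds and 0 lower by limma (0 lower at an unadjusted p under 0.05). It was 0.59 on the late slides alone, with 20 genes higher and 2 lower. No share of all genes is given for these smaller fits, so their counts cannot be set against a background here.

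Promoters are shown here because 30 of the 49 genes were higher in terminal end buds than in ducts and several are textbook E2F targets. RefSeq promoter windows of assembly GRCm38.p6, each from 250 bases before to 50 after a transcription start, were found for 43 of the 51 genes, in 53 windows. Gmnn, Mcm4, Gins1, Gins2, Prim2, Pole, Rfc2 and Ccne2 had no window. The E2F letters searched were TTTCCCGC, TTTCGCGC, TTTGCCGC and TTTGGCGC on both strands, where matches on opposite strands can overlap. They were found in 15 of 53 windows (28.3%), against 2.26% of all 32851 windows. The letters CCAAT, also searched on both strands, were found in 28 windows (52.8%), against 37.4% of all windows. The windows of these genes had a median GC content of 61.3%, against 52.7% over all windows. A match describes the letters and shows no binding. Of the genes with an E2F match, Mcm3, Mcm5, Mcm6, Mcm7 and Pold1 were higher in terminal end buds than in ducts. Orc1, Cdc6, Pola1, Pole2, Rfc3, Lig1, Dnmt1 and Hells were not called in that comparison. Uhrf1 was called lower, though not in every fit, and Cdt1 was not measured. Many genes without E2F letters, such as Rrm2 and Dut, were higher too. Whether the letters go with the calls was not tested.

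The 160 bases before the start are printed for 6 genes, 5′ to 3′ on the strand of the gene, with capitals for E2F or CCAAT matches. Mcm6 (chr1:128359706-128359865, minus strand) and Mcm5 (chr8:75109349-75109508, plus strand) are shown as strongly raised genes with overlapping E2F matches. Rrm2 (chr12:24708094-24708253, plus strand) and Dut (chr2:125247355-125247514, plus strand) are shown as raised genes with no E2F letters in the stretch. Orc1 (chr4:108579294-108579453, plus strand) is shown as a gene with an E2F match that passed in no comparison. Uhrf1 (chr17:56303177-56303336, plus strand, the first of its 2 starts) is shown because it moved the other way.
Mcm6: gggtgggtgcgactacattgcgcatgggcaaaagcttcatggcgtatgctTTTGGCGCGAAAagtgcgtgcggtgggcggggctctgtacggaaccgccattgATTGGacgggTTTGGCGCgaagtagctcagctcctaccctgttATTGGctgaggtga
Mcm5: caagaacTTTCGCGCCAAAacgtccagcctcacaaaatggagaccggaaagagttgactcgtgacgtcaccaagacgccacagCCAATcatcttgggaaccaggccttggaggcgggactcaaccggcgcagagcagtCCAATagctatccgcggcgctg
Rrm2: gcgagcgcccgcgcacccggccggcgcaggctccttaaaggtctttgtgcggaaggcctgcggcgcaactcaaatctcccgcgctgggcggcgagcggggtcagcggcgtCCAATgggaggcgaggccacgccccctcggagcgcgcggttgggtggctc
Dut: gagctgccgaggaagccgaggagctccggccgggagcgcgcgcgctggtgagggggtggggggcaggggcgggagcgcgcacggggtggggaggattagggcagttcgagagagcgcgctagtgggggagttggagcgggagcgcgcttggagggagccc
Orc1: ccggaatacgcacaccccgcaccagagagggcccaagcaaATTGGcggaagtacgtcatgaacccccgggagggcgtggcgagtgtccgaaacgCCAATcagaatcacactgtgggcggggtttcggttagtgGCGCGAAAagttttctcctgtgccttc
Uhrf1: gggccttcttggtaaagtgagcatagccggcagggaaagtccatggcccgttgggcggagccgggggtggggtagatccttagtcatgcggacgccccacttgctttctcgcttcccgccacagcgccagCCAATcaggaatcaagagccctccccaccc

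Mcm6 holds 3 E2F matches in this stretch, of which 2 overlap on opposite strands, and Mcm5 holds 2 that overlap likewise. Orc1 holds 1, close to the start. In Rrm2 a CCAAT match stands alone, and Dut has neither motif here. The window of the second Uhrf1 start held 1 E2F match. Mcm6, Orc1 and Pole2 all had windows with E2F letters and behaved differently on the arrays, as described below.

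**Figure D2:**
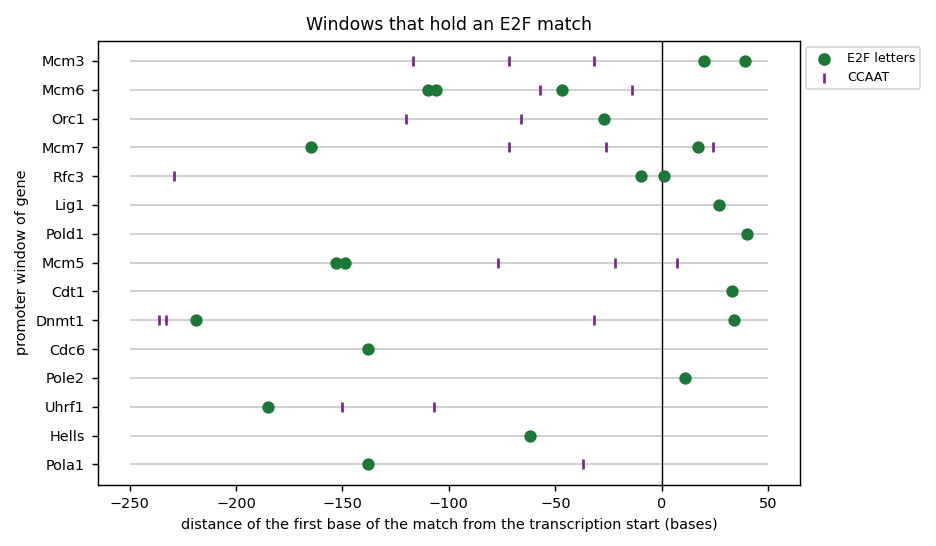
Distance in bases of the first base of each E2F match (green dots) and CCAAT match (purple bars) from the transcription start, for the 15 windows that hold an E2F match. Matches lie on both sides of the start, and Mcm6 carries 3.

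Licensing genes moved unevenly. Of 5 measured, 3 were higher and 1 lower than stroma in terminal end buds, and 2 were higher in terminal end buds than in ducts. Orc6, a subunit of the origin recognition complex, had terminal end bud ratios from 0.57 to 1.04 (median 0.70) and duct ratios from 0.004 to 0.34 (median 0.23). The groups did not overlap, and the difference was 0.51 (SE 0.094, adjusted p = 0.0015). Its duct call against stroma was lost without duct replicate 2, 4 or 5 (adjusted p up to 0.0764). Orc1, the subunit that is limited to part of the cell cycle, passed in no comparison. Its ratios ran from -0.30 to 0.38 (median 0.088) in terminal end buds and from -0.11 to 0.11 in ducts, around 0 in both. Orc2, a core subunit of the same complex, was lower than stroma in terminal end buds at -0.37 (SE 0.062, adjusted p = 0.000193), with ratios from -0.56 to -0.17 (median -0.40). Its duct ratios ran from -0.22 to 0.038 (median -0.15) and overlapped them. Its difference of -0.255 between the structures missed the threshold (adjusted p = 0.0606). It passed when replicate 1 of the terminal end buds was left out (adjusted p = 0.035) or 4 (adjusted p = 0.0355). The calls of these 3 subunits of 1 complex differed, each on a single probe, and whether the subunits differ from one another was not tested.

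Gmnn encodes geminin, which binds Cdt1 and blocks a further round of licensing after S phase begins. It was the single gene called in opposite directions against stroma. Its ratios ran from -0.14 to 0.66 (median 0.42) in terminal end buds and from -0.89 to -0.16 (median -0.63) in ducts. The groups did not overlap, by a narrow gap between terminal end bud replicate 2 and duct replicate 5. The mean was 0.34 (SE 0.11, adjusted p = 0.0258) in terminal end buds and -0.60 (SE 0.11, adjusted p = 0.00114) in ducts, a difference of 0.94 (SE 0.16, adjusted p = 0.000975). The terminal end bud call against stroma was lost without terminal end bud replicate 3, 4, 5 or 6 (adjusted p up to 0.0936), while the difference between the structures kept its call in all 12 such fits. On the early slides alone the terminal end bud mean was -0.069 (adjusted p = 0.696). Cdc6, the loader of the helicase, was higher than stroma in terminal end buds by 0.46 (SE 0.10, adjusted p = 0.00195) and did not pass in ducts. Its terminal end bud arrays spread from 0.001 to 0.76, and its difference of 0.35 between the structures missed the threshold (adjusted p = 0.121). It passed when terminal end bud replicate 2 was left out (0.44, adjusted p = 0.0356).

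The MCM2-7 helicase subunits had the highest median ratio of the roles in terminal end buds, at 1.61, against 0.47 in ducts. All 6 were higher than stroma there, with means from 0.85 for Mcm4 to 2.32 for Mcm6, and 4 of 6 were higher than stroma in ducts. Mcm6 had ratios from 1.58 to 2.86 (median 2.33) in terminal end buds and from 0.42 to 2.05 (median 0.68) in ducts. The overlap came from duct replicate 5 at 2.05, since no other duct array exceeded 1.02. Its difference between the structures was 1.42 (SE 0.28, adjusted p = 0.00233). For Mcm3 the terminal end bud arrays ran from 1.40 to 2.28 (median 1.84) and the duct arrays from 0.17 to 1.26 (median 0.32), with no overlap and a difference of 1.34 (SE 0.21, adjusted p = 0.000544). Mcm5, Mcm2 and Mcm7 were higher in terminal end buds than in ducts by 1.16, 1.06 and 1.01, and the groups of Mcm2 and Mcm7 did not overlap.

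Mcm4 was the 1 subunit that did not pass between the structures. Its difference of 0.585 (SE 0.24) missed the threshold (adjusted p = 0.122), with terminal end bud replicate 5 at -0.16 and the other 5 arrays at 0.49 or above. Without that array the difference was 0.79 (adjusted p = 0.011). In ducts the calls of Mcm3 and Mcm5 were lost without duct replicate 5 (adjusted p = 0.0783 and 0.108) and without duct replicate 2 (adjusted p = 0.065 and 0.0888). Mcm2 missed the threshold in ducts (0.41, adjusted p = 0.0532) and passed when duct replicate 6, its lowest duct array at -0.38, was left out (0.57, adjusted p = 0.00608). It also passed under 4 other settings with all arrays (adjusted p from 0.0377 to 0.0472).

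Origin firing factors had a median ratio of 0.51 in terminal end buds and 0.11 in ducts. Of 6 measured, 5 were higher than stroma in terminal end buds. In ducts 0 passed by limma, with 1 at an unadjusted p under 0.05. Between the structures, 2 were higher in terminal end buds than in ducts on the probes read. With the mean of a gene's probes Gins2 and Mcm10 passed as well, at 0.46 and 0.58 (adjusted p = 0.0022 and 0.0135). Cdc45, a part of the active helicase, had ratios from 0.39 to 1.05 (median 0.71) in terminal end buds and from -0.17 to 0.23 (median -0.069) in ducts. The groups did not overlap, and the difference was 0.71 (SE 0.11, adjusted p = 0.000593). Gins1, a GINS subunit, ran from 0.27 to 1.01 (median 0.63) in terminal end buds and from -0.15 to 0.43 (median 0.12) in ducts, with a difference of 0.52 (SE 0.12, adjusted p = 0.00701). Only terminal end bud replicate 2 and duct replicate 5 crossed. The kinase pair Cdc7 and Dbf4 was higher than stroma in terminal end buds by 0.74 and 0.38, and neither passed between the structures, with differences of 0.46 and 0.14 (adjusted p = 0.154 and 0.541). Cdc7 passed when terminal end bud replicate 2 was left out (0.59, adjusted p = 0.0463). Without duct replicate 4 Dbf4 passed against stroma in ducts (0.30, adjusted p = 0.0361). The second probe of Dbf4 did not pass in either structure, at -0.062 in terminal end buds (adjusted p = 0.52) and -0.154 in ducts (adjusted p = 0.124).

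Gins2, another GINS subunit, was read from a probe that stayed near 0 on every array. Its ratios ran from -0.086 to 0.058 in terminal end buds and from -0.14 to 0.022 in ducts, and no comparison passed. The other probe of Gins2 stood at 0.98 in terminal end buds (adjusted p = 1.3e-06) and 0.12 in ducts (adjusted p = 0.421), with a difference of 0.87 (adjusted p = 0.000579). The 6 genes with several probes were Mcm10, Dbf4, Gins2, Pola2, Pole2 and Hells, and 5 of them had probes with different calls in terminal end buds against stroma.

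**Figure D3:**
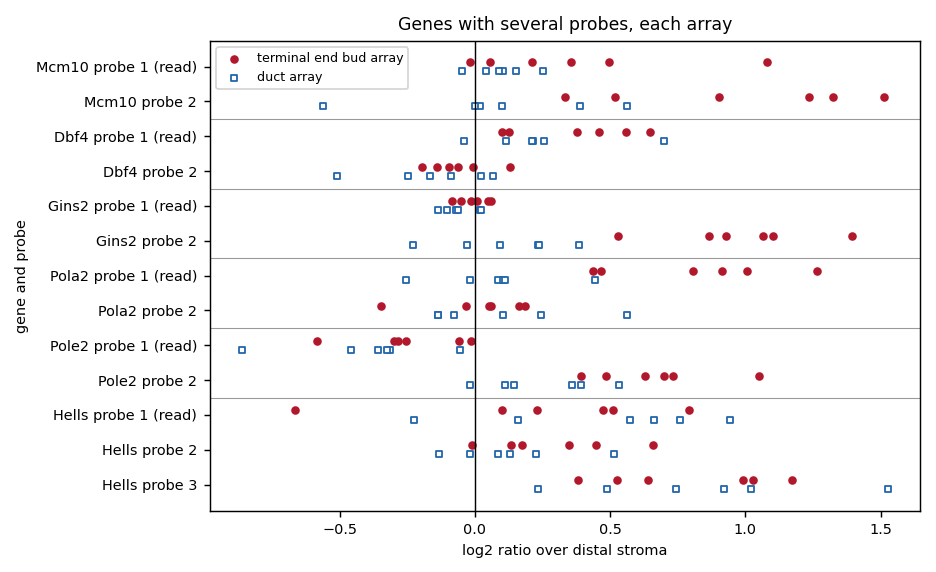
Log2 ratio over distal stroma on each terminal end bud array (red dots) and each duct array (open blue squares) for every probe of the 6 genes with several probes; the probe read for the gene is marked. Probes of Gins2, Pola2 and Pole2 do not overlap over the terminal end bud arrays, with the second Pole2 probe above 0 on all terminal end bud arrays and the first below 0.

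Pole2, the second subunit of the leading-strand polymerase, had probes called in opposite directions against stroma. The probe read for it was lower than stroma at -0.25 (SE 0.091, adjusted p = 0.0377) in terminal end buds and at -0.39 (SE 0.091, adjusted p = 0.00469) in ducts. Its ratios ran from -0.585 to -0.015 (median -0.27) in terminal end buds and from -0.86 to -0.054 (median -0.34) in ducts, with the groups overlapping. The second probe was higher than stroma by 0.66 (adjusted p = 1.57e-05) and 0.25 (adjusted p = 0.0384), and higher in terminal end buds than in ducts by 0.41 (adjusted p = 0.0278). The lower call in terminal end buds was also lost without terminal end bud replicate 1, 2, 4 or 6 (adjusted p up to 0.142). Which probe reads the gene was not tested. Mcm10, which helps to start the helicase, was higher than stroma in terminal end buds by 0.36 on the probe read (adjusted p = 0.0137) and by 0.97 on the other (adjusted p = 0.000117), and only the other passed between the structures (0.89, adjusted p = 0.0104). Pola2 went the opposite way, since its second probe stood at 0.0135 in terminal end buds (adjusted p = 0.925). Over all 56 probes of the list, 45 were higher and 4 lower than stroma in terminal end buds, and 33 exceeded the ducts while 2 lay below them. Of all 17589 probes, 4086 were higher and 3588 lower than stroma in terminal end buds. Against ducts, 1463 of all probes were higher in terminal end buds and 1832 lower.

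The polymerases and primase were mostly higher in terminal end buds. Of 8 genes, 7 were higher and 1 lower than stroma there, 4 were higher and 1 lower in ducts, and 6 were higher in terminal end buds than in ducts. Pola2, the regulatory subunit of the polymerase that starts new strands, ran from 0.43 to 1.26 (median 0.86) in terminal end buds and from -0.26 to 0.45 (median 0.095) in ducts. The difference was 0.74 (SE 0.15, adjusted p = 0.00283), with 1 duct array, replicate 5, reaching the terminal end bud range. The second probe of Pola2 did not pass between the structures (-0.080, adjusted p = 0.742). Prim2, a primase subunit, ran from 0.042 to 1.19 (median 0.97) in terminal end buds and from -0.32 to 0.49 (median 0.16) in ducts, with a difference of 0.70 (SE 0.19, adjusted p = 0.0189). Under quantile normalization that call was lost (0.55, adjusted p = 0.0726). Here terminal end bud replicate 5 lay within the duct range and the other 5 arrays lay above it. The catalytic subunit Pola1 was close to equal in the structures, at 0.40 and 0.36 over stroma, with a difference of 0.038 (SE 0.16, adjusted p = 0.911). On the early slides alone its terminal end bud mean was -0.033 (adjusted p = 0.903), and its duct call was lost without duct replicate 2, 4, 5 or 6 (adjusted p up to 0.107).

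Subunits of the lagging-strand and leading-strand polymerases had the same direction. Pold1 and Pold2 were higher in terminal end buds than in ducts by 0.57 and 0.69 (adjusted p = 0.00814 and 0.00844), Prim1 by 0.60 (adjusted p = 0.0414) and Pole by 0.33 (adjusted p = 0.0493). Pold1 missed the threshold under quantile normalization (0.36, adjusted p = 0.0976), as did Prim1 (adjusted p = 0.231) and Pole (adjusted p = 0.452). Prim1 lost its call without terminal end bud replicate 3, 4 or 6 or duct replicate 1, 3, 4 or 6 (adjusted p up to 0.094). Pole lost it without terminal end bud replicate 1, 3, 4, 5 or 6 or duct replicate 1, 4 or 6 (adjusted p up to 0.104).

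The sliding clamp Pcna holds polymerases on DNA, and replication factor C loads it. Pcna had ratios from 0.88 to 1.56 (median 1.32) in terminal end buds and from 0.047 to 1.004 (median 0.20) in ducts. The overlap came from duct replicate 5 at 1.004, since the next duct array stood at 0.76. The difference was 0.895 (SE 0.18, adjusted p = 0.00261). Its duct call of 0.38 (SE 0.12, adjusted p = 0.0354) was lost without duct replicate 5 (0.26, adjusted p = 0.133) or replicate 2 (0.30, adjusted p = 0.119).

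The 5 subunits of the clamp loader, each with a single probe, differed in their calls. Rfc5, Rfc2 and Rfc4 were higher in terminal end buds than in ducts, Rfc3 passed in no comparison and Rfc1 was lower. Rfc5 ran from 0.41 to 1.63 (median 1.39) in terminal end buds and from 0.15 to 0.69 (median 0.37) in ducts, with a difference of 0.82 (SE 0.19, adjusted p = 0.00719). It was 0.57 under quantile normalization, and missed the threshold (adjusted p = 0.054). Its lowest terminal end bud array, replicate 3, lay within the duct range. Its duct call was lost without duct replicate 1, 2, 5 or 6 (adjusted p up to 0.0989). Rfc2 had arrays from 0.61 to 1.04 in terminal end buds and from 0.015 to 0.33 in ducts, a difference of 0.68 (SE 0.087, adjusted p = 0.000129) with no overlap. Rfc4 differed by 0.51 (SE 0.10, adjusted p = 0.00295), also with no overlap.

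Rfc1, the large subunit of the loader, ran from -0.62 to -0.074 (median -0.26) in terminal end buds and from -0.071 to 0.18 (median 0.060) in ducts. Every terminal end bud array lay below every duct array, by a gap of a few thousandths at its narrowest. It was lower than stroma in terminal end buds at -0.30 (SE 0.065, adjusted p = 0.00173), near 0 in ducts (adjusted p = 0.628), and its difference was -0.34 (SE 0.092, adjusted p = 0.0164), a call kept in all 12 leave-one-out fits. Rfc3 ran from -0.001 to 0.59 (median 0.10) in terminal end buds and from -0.057 to 0.50 (median 0.23) in ducts, with the groups overlapping throughout. In ducts it passed without terminal end bud replicate 4 (0.22, adjusted p = 0.0273) or duct replicate 2 (0.27, adjusted p = 0.033).

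All 4 measured genes of single-strand binding and lagging-strand joining were higher than stroma in terminal end buds. Rpa2, a subunit of the complex that coats single-stranded DNA, ran from 0.75 to 1.25 (median 0.997) in terminal end buds and from -0.13 to 0.78 (median 0.084) in ducts. The difference was 0.83 (SE 0.15, adjusted p = 0.00116), and duct replicate 5 alone reached the terminal end bud range. Fen1, the nuclease that trims the flaps of Okazaki fragments, ran from 0.70 to 1.53 (median 0.94) in terminal end buds and from 0.14 to 0.81 (median 0.34) in ducts, with a difference of 0.64 (SE 0.16, adjusted p = 0.0102) that missed the threshold under quantile normalization (0.40, adjusted p = 0.0677). Rpa1 differed by 0.38 (adjusted p = 0.0339) and lost that call without terminal end bud replicate 1, 3, 4 or 6 or duct replicate 1, 2, 3 or 4 (adjusted p up to 0.0774). Its duct call was lost without duct replicate 2, 3, 4, 5 or 6 (adjusted p up to 0.0841). Lig1, the ligase that seals the fragments, was higher than stroma in terminal end buds by 0.71 (adjusted p = 0.00211), and its difference of 0.34 did not pass (adjusted p = 0.352).

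Nucleotide supply was the role whose genes all differed between the structures with no overlap of the groups. All 5 were higher than stroma in terminal end buds by at least 1 on the log2 scale, and all 5 were higher than in ducts. Rrm2, the S-phase subunit of ribonucleotide reductase, which makes deoxynucleotides, ran from 1.39 to 1.999 (median 1.86) in terminal end buds and from 0.17 to 0.84 (median 0.26) in ducts. The difference was 1.405 (SE 0.13, adjusted p = 1.24e-05). Dut, the enzyme that removes dUTP and provides the precursor of thymidylate, ran from 1.32 to 1.94 (median 1.54) in terminal end buds and from 0.066 to 0.55 (median 0.29) in ducts. It differed by 1.27 (SE 0.12, adjusted p = 9.91e-06), the smallest adjusted p of the 49 genes.

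The other 3 enzymes showed the same separation. Tyms, thymidylate synthase, differed by 1.10 (SE 0.14, adjusted p = 0.000109), with terminal end bud arrays at 0.90 or above and duct arrays at 0.73 or below. Tk1, the salvage thymidine kinase, differed by 1.06 (SE 0.18, adjusted p = 0.00103), with terminal end bud arrays at 0.88 or above and duct arrays from -0.50 to 0.65. Rrm1, the large reductase subunit, differed by 0.94 (SE 0.15, adjusted p = 0.000761), with terminal end bud replicate 2 at 0.591 next to duct replicate 5 at 0.588. In ducts only Rrm2 and Dut were higher than stroma, by 0.40 (adjusted p = 0.0056) and 0.31 (adjusted p = 0.0109). Both kept that call in all 12 leave-one-out fits.

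Of the 5 genes that copy chromatin and DNA methylation, 3 were higher than stroma in terminal end buds and 1, Uhrf1, was lower. Chaf1a and Chaf1b, subunits of the chromatin assembly factor that places histones on new DNA, were higher than stroma in terminal end buds by 0.75 and 1.25. Chaf1b ran from 0.16 to 1.91 (median 1.43) in terminal end buds and from -0.34 to 0.95 (median 0.46) in ducts. Its difference was 0.86 (SE 0.27, adjusted p = 0.0385), and the call was lost without terminal end bud replicate 2, 3, 4 or 6 or duct replicate 1, 2, 3 or 4 (adjusted p up to 0.0891). Chaf1a ran from 0.60 to 0.99 (median 0.73) against -0.22 to 0.49 (median 0.057) with no overlap, a difference of 0.64 (SE 0.13, adjusted p = 0.00269).

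Dnmt1, the methyltransferase that copies methylation onto new strands, was higher than stroma in both structures, by 1.48 in terminal end buds and 0.86 in ducts (adjusted p = 3.03e-06 and 0.001). Its difference of 0.62 (SE 0.23) missed the threshold (adjusted p = 0.0761). It passed when its lowest array, terminal end bud replicate 1, was left out (0.79, adjusted p = 0.0117). Hells, a chromatin remodeller of the same pathway, passed in ducts at 0.48 on the probe read (adjusted p = 0.0461). That call was lost in 8 of 12 leave-one-out fits (adjusted p up to 0.147). Without terminal end bud replicate 4 the probe read passed in terminal end buds too (0.42, adjusted p = 0.0336). Another of the 3 Hells probes was higher than stroma in both structures, by 0.79 and 0.82 (adjusted p = 0.000322 and 0.000534). The remaining probe was higher in terminal end buds (0.29, adjusted p = 0.0164) and did not pass in ducts (0.13, adjusted p = 0.304). With the mean of its probes Hells was higher than stroma in terminal end buds by 0.44 (adjusted p = 0.00164).

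Uhrf1, which recruits Dnmt1 to hemimethylated DNA, was the lowest gene of the list in either structure. Its single probe ran from -1.96 to -1.19 (median -1.76) in terminal end buds and from -1.72 to -0.87 (median -0.98) in ducts. All 12 arrays lay below stroma and the groups overlapped. The mean was -1.66 (SE 0.12, adjusted p = 3.96e-08) in terminal end buds and -1.13 (SE 0.12, adjusted p = 6.87e-06) in ducts. The difference of -0.53 (SE 0.16, adjusted p = 0.0353) lost its call without terminal end bud replicate 1, 2, 4 or 6 or duct replicate 3, 4, 5 or 6 (adjusted p up to 0.0814). It turned to 0.17 under quantile normalization (adjusted p = 0.585), so no direction between the structures is given. The probe's assignment to Uhrf1 was not tested.

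**Figure D4:**
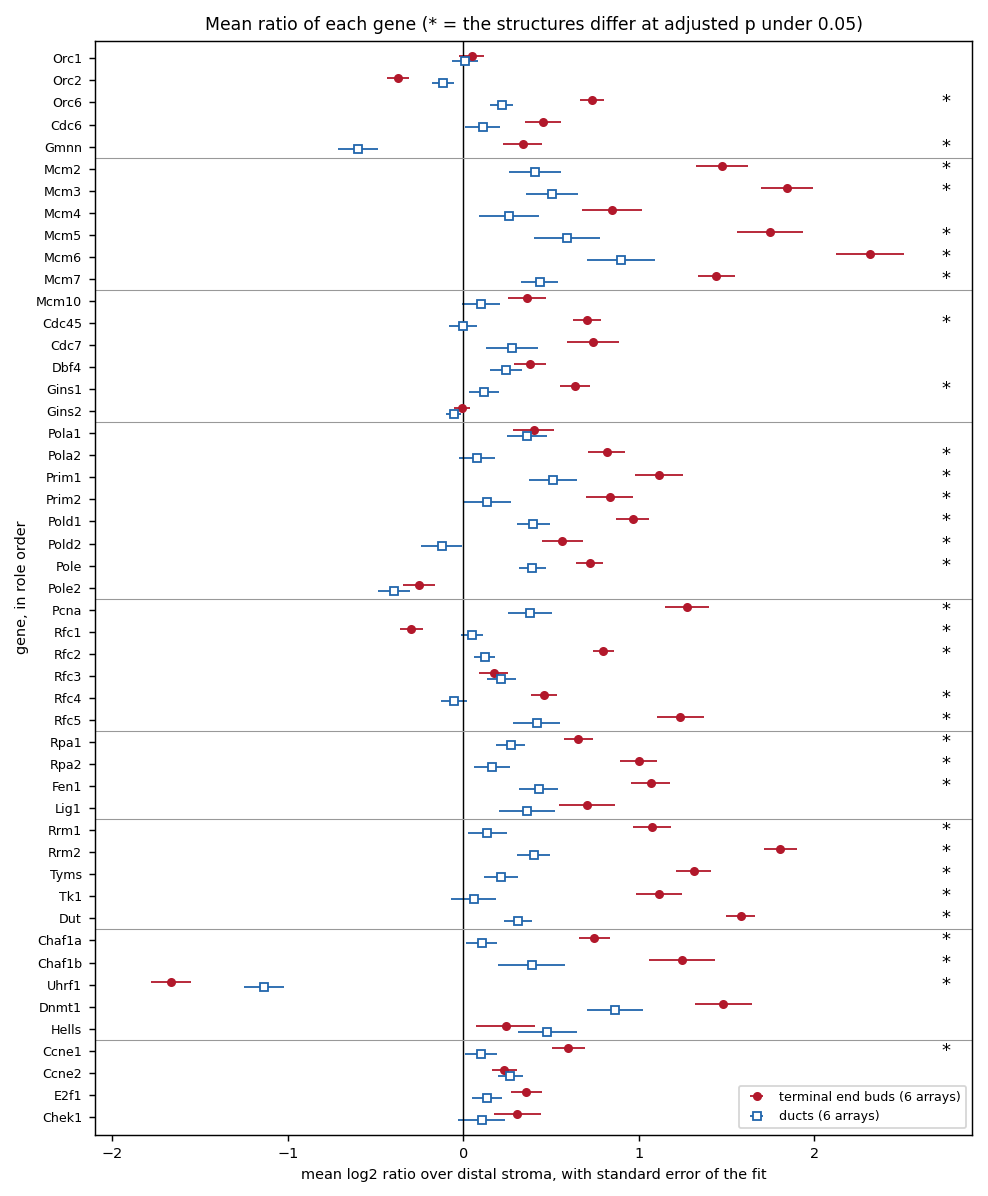
Mean log2 ratio over distal stroma with the standard error of the fit for each of the 49 genes, in terminal end buds (red dots) and ducts (open blue squares), 6 arrays each; asterisks mark an adjusted p under 0.05 between the structures. Red dots lie right of the squares for the MCM2-7 and nucleotide supply genes, while Orc2, Rfc1, Rfc3, Uhrf1, Hells and Ccne2 have them to the left.

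Regulators of S-phase entry had a median ratio of 0.33 in terminal end buds and 0.12 in ducts. Of 4 genes, 3 were higher than stroma in terminal end buds, 1 in ducts, and 1 was higher in terminal end buds than in ducts. Ccne1, a cyclin that drives entry into S phase, ran from 0.24 to 0.78 (median 0.69) in terminal end buds and from -0.19 to 0.57 (median 0.039) in ducts, with a difference of 0.50 (SE 0.13, adjusted p = 0.014). The 1 high duct array was again replicate 5. Ccne2, the paralogous cyclin, was at 0.23 and 0.27 over stroma with a difference of -0.034 (SE 0.10, adjusted p = 0.871). Its terminal end bud call was lost without terminal end bud replicate 4 (adjusted p = 0.0705) and its duct call without duct replicate 5 (adjusted p = 0.0552). E2f1, a transcription factor of the G1/S genes, ran from -0.075 to 0.60 (median 0.40) in terminal end buds and from -0.10 to 0.47 (median 0.15) in ducts. It was higher than stroma in terminal end buds by 0.36 (SE 0.087, adjusted p = 0.00342), and its difference of 0.22 (SE 0.12) did not pass (adjusted p = 0.255).

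Chek1, the kinase that slows replication when forks stall, passed in no comparison. Its ratios ran from -0.083 to 0.73 (median 0.33) in terminal end buds and from -0.65 to 0.47 (median 0.19) in ducts, and the groups overlapped. Its terminal end bud mean of 0.31 (adjusted p = 0.0802) passed without terminal end bud replicate 1 or 3 or without duct replicate 4, which enters the shared spread (smallest adjusted p = 0.0253), and with array weights (adjusted p = 0.0491).

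Other genes of the pathway were listed apart from the 51. Of all genes, 24.8% were higher and 21.8% lower than stroma in terminal end buds. Between the structures, 9.11% of all genes were higher in terminal end buds and 11.3% lower. Of 38 further replication fork and checkpoint genes, 21 were higher and 6 lower than stroma in terminal end buds, and 8 were higher and 3 lower than in ducts, with a median difference of 0.18. The 3 highest were Ccna2, the S-phase cyclin, at 1.23 (adjusted p = 0.014), Top2a, the topoisomerase of dividing cells, at 1.15 (adjusted p = 0.0329), and Mcmbp at 0.46 (adjusted p = 0.00269). The 3 lower genes were Top2b at -0.84 (adjusted p = 0.00017), Rad17 at -0.35 and Pole4 at -0.29. Of 29 other nucleotide synthesis enzymes, 9 were higher in terminal end buds than in ducts and 0 lower by limma (1 lower at an unadjusted p under 0.05), with a median difference of 0.092. They were led by Nme2 at 1.21 (adjusted p = 8.11e-05), the thymidylate kinase Dtymk at 0.73 and the folate enzyme Mthfd2 at 0.65.

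Histone supply genes were called in both directions. Of all genes, 9.11% were higher in terminal end buds than in ducts and 11.3% lower. Of 16 measured genes, 3 were higher in terminal end buds than in ducts, the histone variants H2az1 at 1.32 (adjusted p = 2.7e-05) and H2ax at 0.91 and the chromatin assembly subunit Rbbp4 at 0.70. Hmgb1 at -0.69 and Cbx3 at -0.46 were lower. For comparison, 27 of 43 mitosis genes were higher in terminal end buds than in ducts and 0 lower by limma (0 at an unadjusted p under 0.05), with a median difference of 0.71, led by Cdc20, Cenpa and Cdk1 at 2.13, 1.99 and 1.76. Mki67, the common proliferation marker, was at 0.99 in terminal end buds and 0.497 in ducts over stroma, and its difference of 0.49 did not pass (adjusted p = 0.288). Whether the replication and mitosis lists differ was not tested.

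Several lists of cell type markers also differed between the structures. Of all genes, 9.11% were higher in terminal end buds than in ducts and 11.3% lower. Fat cell markers were lower in terminal end buds than in ducts for 8 of 12 measured genes, and their array medians ran from -1.78 to -1.12 in terminal end buds and from -0.52 to -0.34 in ducts. Endothelial markers were lower for 8 of 9 genes, with array medians from -1.46 to -0.92 and from -0.59 to -0.16. Fabp4 differed by -1.31 and Pecam1 by -1.24 (adjusted p = 0.00307 and 4.07e-05). Luminal markers were higher in terminal end buds for 5 of 17 genes, with array medians from 2.34 to 3.95 and from 2.23 to 3.30, and Krt18 and Epcam differed by 0.21 and -0.054 (adjusted p = 0.6248 and 0.936). Basal markers were lower in terminal end buds for 5 of 12 genes and higher for 1. Brown fat cell markers were lower for 6 of 7 genes. Fibroblast markers did not follow the fat and endothelial lists, with 3 of 12 genes higher in terminal end buds, 1 lower and a median difference of -0.03. Of 10 leukocyte markers 0 differed between the structures by limma (1 lower at an unadjusted p under 0.05), and Ptprc at -0.43 had an adjusted p of 0.0629. The part of these shifts in the replication genes was not tested. Ratios have no zero level, so the absence of a cell type cannot be read from them.

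Duct replicate 5, where the replication median was highest among the ducts, also had the highest duct medians of the mitosis and endothelial lists and of the other replication, nucleotide and histone lists. Its luminal median was 3.02, its basal median 2.38 and its fat cell median -0.40, each within the range of the other 5 arrays. Its endothelial median was -0.16, against -0.59 to -0.25 on the other duct arrays. Its mitosis median was 0.55, against 0.067 to 0.34 on the other duct arrays.

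**Figure D5:**
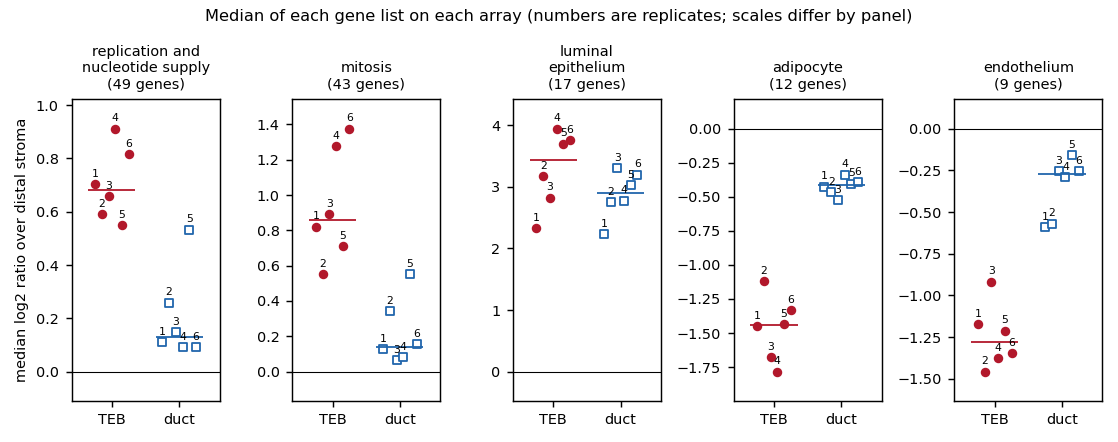
Median log2 ratio over distal stroma of 5 gene lists on each array, with replicate numbers beside the points and a line at the median of the 6 arrays of terminal end buds (TEB, red dots) and ducts (open blue squares). Duct replicate 5 is the highest duct array for replication (0.53), mitosis (0.55) and endothelial (-0.16) genes but lies among the other ducts for luminal and fat cell genes.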

How the data were processed

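The authors deposited a table of normalized log2 ratios of 2-colour arrays, with Cy5 epithelium over Cy3 stroma per the labels, and these were used as deposited. Scanner, background correction and kind of normalization were left unstated (not given in the sources used here). Base 2 is taken from the size of the values. Array medians lay between 0.01 and 0.023. Of 17589 probes, 14136 had 1 gene symbol in the platform annotation, 13 had several and 3440 were unnamed here. All 56 probes of the list matched RefSeq gene numbers, with 0 symbols changed.

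A gene was read from the probe with values on most arrays, then the first in the table. Groups follow the labels; a replicate number is only a name for an array. One fit of 2 group means over all 12 arrays was made with limma 3.58.1 in R 4.3.3 (lmFit, eBayes, two-sided), requiring values on 4 arrays per group. The fit was tested on simulated data. The members and lists were chosen with earlier results of these data known. Genes given with values for every group were the 2 with the largest difference in each role, those lower than stroma or lower in terminal end buds than ducts, those called in no comparison, and Pcna, Rrm2, Mcm6, Uhrf1, E2f1 and Chek1. From each other list up to 3 genes per direction were named. Mcm2, Mcm4, Mcm5, Mcm7, Cdc6, Cdc7, Dbf4, Pola1, Dnmt1, Hells and others of the list were described for completeness. Alternatives covered centring, scaling, probes, variance, weights, slides and single arrays. Promoters and figures used Python 3.11.15 and matplotlib 3.10.9.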

Additional observations from a re-analysis of the deposited data

Results flagged for a closer look

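Among the 49 genes, each with 6 arrays per structure, 5 of 98 groups held a value far from the other 5 arrays, where chance alone gives about 1 in 20, or 4.9. In duct replicate 5, Mcm6 stood at 2.053 against a next highest duct value of 1.02, and Mcm4 at 0.943 against 0.285. Rfc3 stood at 0.586 in terminal end bud replicate 4 against a next highest of 0.217. Rrm2 stood at 1.393 in terminal end bud replicate 5, with the other terminal end bud arrays at 1.813 or above. Chek1 stood at -0.653 in duct replicate 4, with the other ducts at 0.089 or above. Gmnn was called higher than stroma in terminal end buds and lower in ducts, and its difference between the structures of 0.94 passed the test of the difference itself (limma, adjusted p = 0.000975).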

How the results depend on the processing

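Under quantile normalization the median difference of the 49 genes between terminal end buds and ducts was 0.41, with 22 genes higher (30 as reported) and 1 lower. With a common median absolute deviation, with a trended and robust variance, and after dropping, in each group, the array least correlated with the rest (an alternative added after seeing the data), 1 gene was lower as well. The slide splits were also added after seeing the data. On slides up to 193 alone, 15 genes were higher and 0 lower between the structures, with 383 and 648 of all probes. Against stroma, 1 gene was lower in terminal end buds, with 2354 probes higher and 2290 lower, and 3 genes were higher in ducts, with 1085 probes higher and 1088 lower. That fit holds 4 arrays. On slides from 196 on alone, 10 genes were higher in ducts, and no share of all probes is given for that fit. Leaving out each array in turn gave 1 to 2 genes lower between the structures and 9 to 19 genes higher in ducts. Signs turned for Uhrf1 between the structures under quantile normalization (0.17). With the mean of a gene's probes they turned in terminal end buds for Gins2 (0.49) and Pole2 (0.21), since their probes differ. On slides up to 193 they turned there for Gmnn (-0.069) and Pola1 (-0.033). For the others the cause was not tested. Pairing neighbouring slides (1 array of each structure) as a random block changed none of the 6 counts of member genes called. Precision is limited by 6 arrays per group and 1 reference tissue, and signal over background is not known for these ratios.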
